A study of Mus musculus with 6 samples.

Results

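The transcripts described here are those of 9 genes of regulated membrane fusion, out of 18193 genes with a probe set of their own: the syntaxins Stx1a, Stx3 and Stx4a, the SNAP proteins Snap25 and Snap23, the vesicle SNAREs Vamp2, Vamp3 and Vamp8, and the ATPase Nsf. Every probe set that the platform annotation gives to only 1 of these genes was taken, which made 24 of the 45101 probe sets on the array. By that annotation 0 probe sets were shared between one of them and another gene. They were measured in MIN6, an insulin-secreting cell line from a mouse insulinoma. On 3 arrays the cells had been electroporated with a control siRNA, and on 3 with an siRNA that targets TDP-43, an RNA-binding protein and the product of Tardbp. Each group received 100 pmol of siRNA, so electroporation and siRNA delivery were common to both. There was no array of untreated cells. The labels do not say whether the 3 samples of a group were separate cultures, so the p-values measure the spread between these samples, which may be technical.

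SNARE proteins drive the fusion of insulin granules with the plasma membrane. A vesicle SNARE such as VAMP2 zips together with a syntaxin and a SNAP-25 family protein on the target membrane into a bundle of helices that pulls both membranes together. NSF, with its SNAP adaptors (a family unrelated to SNAP-25), then takes the spent bundle apart so that its parts can be used again. In beta cells Stx1a, Snap25 and Vamp2 are best known for calcium-triggered granule release, and the other syntaxins and VAMPs serve overlapping routes to the plasma membrane.

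Values are MAS5 signals, a linear measure of probe brightness. Signals of different probe sets are not comparable as transcript amounts, because probes bind with different strength. Differences were therefore taken across arrays, within a probe set or in the gap between probe sets of one gene. Sums of marker signals serve only to compare arrays and do not measure shares of cell types. The largest signal in these sums was that of Iapp, Krt7 or Gcg. A difference is a log2 value of TDP-43 siRNA minus control siRNA, computed after adding 12 to each signal, which understates the change of dim probe sets. In such bulk RNA, fewer cells that express a gene and less RNA per cell cannot be told apart. Tardbp itself fell on all 5 of its probe sets, with differences from -1.41 to -0.85 (limma adjusted p between 5.15e-04 and 0.00515). The beta cell markers with a probe set, Ins2, Iapp, Pdx1, Nkx6-1, Slc2a2 and Slc30a8, had control means from 1785 to 21716. Their summed signal was 51989 to 54742 in control arrays and 52402 to 57801 after TDP-43 siRNA. Of 12 markers of acinar, duct, fibroblast, endothelial and immune cells on the array 6 passed the filter on low signals, and their summed signal was 5811 to 6569 and 5268 to 6417. The control means of the 6 that passed were 5648 for Krt7 and between 44.0 and 93.9 for Cela1, Col1a2, Kdr, Cd68 and Lyz2. Those of the 6 below the filter (Cpa1, Krt19, Ptprc, Pecam1, Col3a1 and Col1a1) lay between 3.65 and 36.2. The 5 markers of other islet cells summed to 7883 to 11169 in control arrays and 8315 to 9257 after TDP-43 siRNA. Among these Gcg had a control mean of 9264 and Irx2 of 393, and Sst, at 25.1 in control and 62.4 after TDP-43 siRNA, did not pass (log2 difference 1.03, limma adjusted p = 0.353). None of the markers tested passed.

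None of the 9 genes changed past the threshold. Of their 24 probe sets 23 were bright enough to test, and 0 rose or fell by limma at an adjusted p below 0.05 over all 27022 probe sets tested, where 0.585% of all probe sets did. At an unadjusted p below 0.05 there was 1 of 23, a Stx3 probe set, beside 11.3% of all probe sets. The groups did not overlap for 2 of 23, where they did not for 17.2% of all. Of these 1 lay higher after TDP-43 siRNA (8.74% of all) and 1 lower (8.45% of all). The median difference of the 23 was 0.06, with 18 above 0 and 5 below. Over all probe sets the median was 0.01, with 13978 above 0 and 13044 below. The median absolute difference was 0.08 in the 23 and 0.11 in all.

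**Figure D1:**
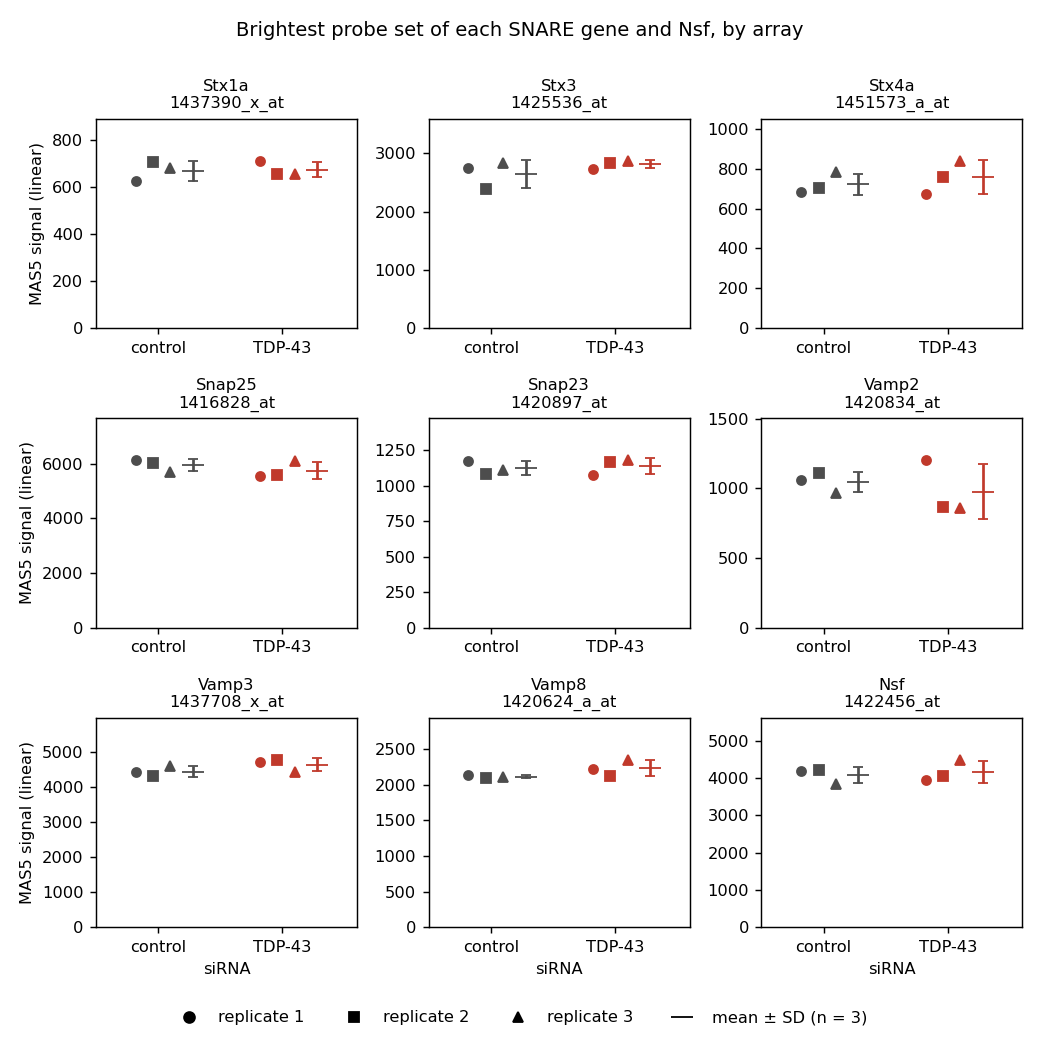
MAS5 signal (linear, axis from 0) of the brightest probe set of each of the 9 genes on the 3 control siRNA and the 3 TDP-43 siRNA arrays, with a symbol for each replicate number and a bar for the mean ± SD (n = 3). The groups overlapped for all 9 genes, and Vamp2 after TDP-43 siRNA had the largest coefficient of variation (20.1%), with signals from 856 to 1201.

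Stx1a, the plasma membrane syntaxin that pairs with SNAP-25 and VAMP2, gave nearly the same mean in both groups on its brightest probe set. On 1437390_x_at the control arrays read 623, 706 and 679.6, and the TDP-43 siRNA arrays 712, 655 and 655. TDP-43 siRNA replicate 1 was the highest of all 6 arrays, and the other two lay inside the control range. This came to a log2 difference of 0.01 (SE 0.09, 95% confidence interval from -0.19 to 0.21, n = 3 per group, limma adjusted p = 0.982). The interval allows a change in signal from -12.1% to 15.4%. The ending _x marks a probe set whose probes can also bind other transcripts, so this one may not read Stx1a alone.

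The second Stx1a probe set, 1448366_at, read 159.6, 177 and 174 in control arrays and 191, 190.3 and 198 after TDP-43 siRNA. Here all 3 TDP-43 siRNA arrays lay above all 3 control arrays. The log2 difference of 0.17 (SE 0.12) did not pass (limma adjusted p = 0.641), and its interval ran from -0.09 to 0.44. The gap between the log2 values of both Stx1a probe sets differed between groups by 0.16 (SE 0.10, limma adjusted p = 0.880 over 10814 pairs of probe sets of one gene). The groups did not overlap in this gap, at -1.89, -1.92 and -1.90 in control arrays and -1.83, -1.72 and -1.67 after TDP-43 siRNA.

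Stx3 is a syntaxin with a place in granule fusion in beta cells and at apical membranes of epithelia, and its transcript is spliced into several forms. It had 4 probe sets, and they did not point the same way. The brightest, 1425536_at, read 2747, 2381 and 2835 in control arrays and 2739, 2841 and 2877 after TDP-43 siRNA. Only control replicate 2 stood lower than the rest, and the difference was 0.09 (SE 0.08, limma adjusted p = 0.714). Probe set 1426151_a_at read 509, 495 and 666 against 653, 571 and 649. Probe set 1434559_at read 370.3, 304 and 469.6 against 397, 404 and 471. On both of these control replicate 3 lay with the TDP-43 siRNA arrays, above the other control arrays, and both differences were 0.17 (limma adjusted p = 0.654 and 0.739). Without control replicate 3 they were 0.31 and 0.32 (limma adjusted p = 0.218 and 0.309).

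The fourth Stx3 probe set, 1425530_a_at, lay lower after TDP-43 siRNA. Its control arrays read 146, 165 and 163 and its TDP-43 siRNA arrays 122, 88.1 and 128, so the groups did not overlap. The log2 difference was -0.46 (SE 0.17), and its unadjusted 95% interval, from -0.83 to -0.09, leaves out 0. Over all probe sets it did not pass (limma adjusted p = 0.323, and between 0.225 and 0.553 over the alternative settings that gave it a value). Set against the brightest Stx3 probe set on the same arrays, its log2 change was lower by 0.55 (SE 0.19, 95% interval from -1.01 to -0.10). That gap was lower on each TDP-43 siRNA array, at -4.36, -4.83 and -4.37, than on the control arrays, at -4.13, -3.75 and -4.02. The difference in the gap did not pass over all pairs (limma adjusted p = 0.620), where 0% of 10814 pairs passed and 6.99% had an unadjusted p below 0.05, as this one and no other of the 14 pairs of these genes did. The name ending _a marks a probe set that can read more than 1 transcript form of its gene. The sources used here do not say which form each Stx3 probe set reads.

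Stx4a, the widely expressed syntaxin of plasma membrane delivery, had 1 probe set. Its control arrays read 681, 701 and 782 and its TDP-43 siRNA arrays 671, 760.2 and 841. The lowest and the highest of the 6 were both TDP-43 siRNA arrays, and the difference was 0.07 (SE 0.10, 95% interval from -0.17 to 0.30, limma adjusted p = 0.870). Without TDP-43 siRNA replicate 3 it was -0.01.

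Snap25, the palmitoylated partner of Stx1a that gives a pair of helices to the fusion bundle, was among the most tightly measured members. Probe set 1416828_at read 6136, 6046 and 5703 in control arrays and 5563, 5599 and 6109.5 after TDP-43 siRNA. The mean was 5962 ± 228 (SD, n = 3) against 5757 ± 306, and the ranges overlapped. The difference of -0.05 (SE 0.06, limma adjusted p = 0.801) had an interval from -0.18 to 0.08, which allows a change from -11.9% to 5.78%. The dim second probe set, 1447763_at, read 169.6, 223 and 148 against 209, 141 and 162, a difference of -0.07 with a wider interval, from -0.48 to 0.35.

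Snap23, the more widely expressed relative of Snap25, had 3 probe sets that gave the same picture. Probe set 1420897_at read 1176, 1083 and 1113 in control arrays and 1075, 1168 and 1180.0 after TDP-43 siRNA. Probe set 1420896_at read 631, 564 and 633 against 568, 622 and 685, and 1420898_at read 266, 242 and 272 against 249, 278 and 296. On all 3, TDP-43 siRNA replicate 3 was the highest array and the groups overlapped. The differences were 0.02, 0.03 and 0.07 with standard errors of 0.08, 0.10 and 0.11 (limma adjusted p = 0.948, 0.937 and 0.865).

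Vamp2, the vesicle SNARE of insulin granules, varied more among the TDP-43 siRNA arrays than any other member did on its brightest probe set. On 1420834_at the control arrays read 1058, 1112 and 965, with a coefficient of variation of 7.15%. The TDP-43 siRNA arrays read 1201, 867 and 856, with a coefficient of variation of 20.1%. Replicate 1 was thus the highest of all 6 arrays, and replicates 2 and 3 were the lowest. The difference was -0.11 (SE 0.13, 95% interval from -0.40 to 0.17, limma adjusted p = 0.791), and without TDP-43 siRNA replicate 1 it was -0.27 (limma adjusted p = 0.448).

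The other Vamp2 probe set, 1420833_at, placed TDP-43 siRNA replicate 1 differently. It read 369, 397 and 334 in control arrays and 374, 456 and 423 after TDP-43 siRNA, with replicate 1 now the lowest of its group. The difference was 0.18 (SE 0.11, limma adjusted p = 0.587). The log2 gap between both probe sets was even in the control arrays, at -1.49, -1.46 and -1.50, whereas after TDP-43 siRNA it was -1.65 on replicate 1 and -0.91 on replicate 2, with replicate 3 close to replicate 2. The groups overlapped in this gap, and its difference of 0.30 (SE 0.20) did not pass (limma adjusted p = 0.907). It was 0.53 without TDP-43 siRNA replicate 1, 0.16 without replicate 2 and 0.20 without replicate 3 (limma adjusted p = 0.564, 0.971 and 0.999). With the mean of both probe sets, Vamp2 was at 0.03 (limma adjusted p = 0.910), so the sign of the gene depended on the probe set.

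**Figure D2:**
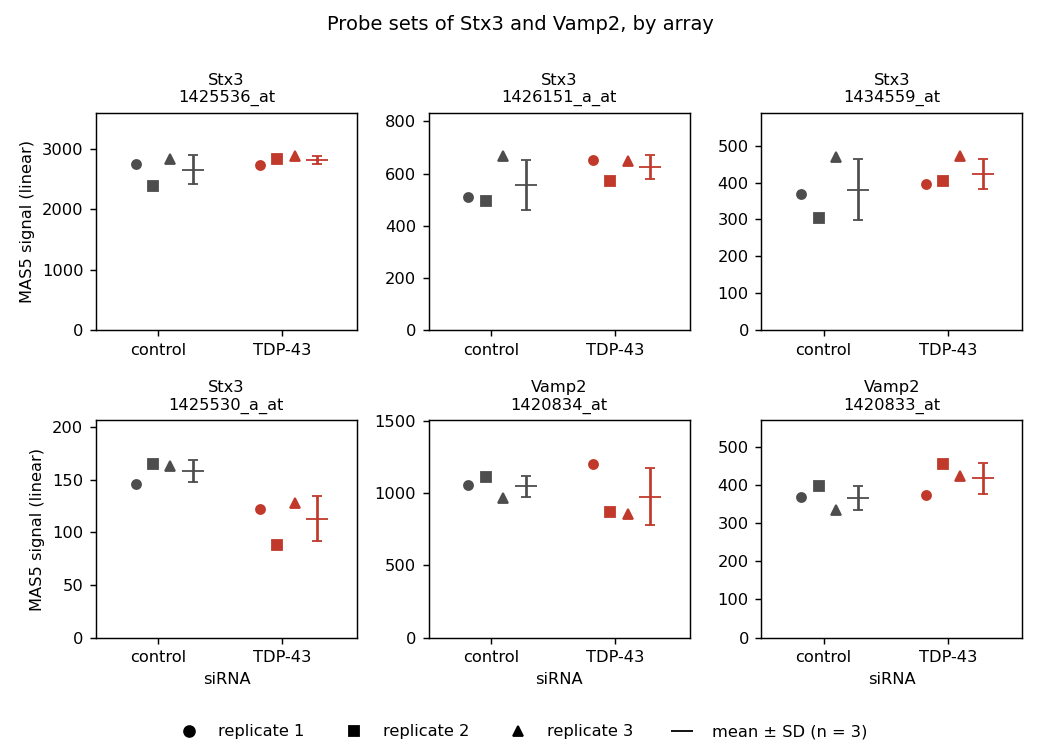
MAS5 signal (linear, axis from 0) on the 4 probe sets of Stx3 and both probe sets of Vamp2, by siRNA group, with a symbol for each replicate number and the mean ± SD (n = 3). Stx3 1425530_a_at is the one panel in which the groups do not overlap, at 146 to 165 against 88.1 to 128. On Vamp2 1420834_at TDP-43 siRNA replicate 1 is the highest array at 1201, while on 1420833_at it is the lowest of its group at 374.

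Vamp3, or cellubrevin, is the close relative of Vamp2 found on recycling endosomes and also on secretory vesicles. All 5 of its probe sets lay slightly above 0, between 0.06 and 0.16, and on each the groups overlapped. The brightest, 1437708_x_at, read 4412, 4298 and 4589 in control arrays and 4719, 4770.0 and 4418 after TDP-43 siRNA (difference 0.06, SE 0.06, 95% interval from -0.07 to 0.19, limma adjusted p = 0.738). Probe set 1433916_at read 3579, 3832 and 3795 against 3879, 3822 and 4218, a difference of 0.09 (SE 0.06, limma adjusted p = 0.651). Probe set 1456245_x_at read 2861, 2518 and 2834 against 3181, 2650.3 and 2953. Probe set 1421102_a_at read 1304, 1256 and 1332 against 1312, 1262 and 1484, and the dimmest, 1433693_x_at, read 266, 299.8 and 249 against 313, 272 and 331. The 5 probe sets read transcripts of 1 gene on the same arrays and are not independent, and 3 have the ending _x of probes that can also bind other transcripts. For the 4 dimmer ones the change differed from that of the brightest by -0.01 to 0.10, and none of these differences passed by limma over all pairs.

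Vamp8, or endobrevin, a SNARE of endosomes and of granules in several secretory cells, had the most even control arrays of all members. On 1420624_a_at these read 2135, 2098 and 2109, a coefficient of variation of 0.887%, and the TDP-43 siRNA arrays read 2226, 2126 and 2348, or 4.97%. TDP-43 siRNA replicate 2 lay between the control arrays, and the other two lay above them. The difference was 0.08 (SE 0.06, 95% interval from -0.07 to 0.22, limma adjusted p = 0.710).

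Nsf, the ATPase that recycles SNAREs after fusion, had 4 probe sets, of which both bright ones differed by 0.02. Probe set 1422456_at read 4191, 4216 and 3847 in control arrays and 3935, 4050.1 and 4487 after TDP-43 siRNA (SE 0.07, 95% interval from -0.13 to 0.18, limma adjusted p = 0.935). Probe set 1422455_s_at read 2068, 1855 and 1611 against 1703, 2043 and 1839.7 (SE 0.10, limma adjusted p = 0.971). On both the groups overlapped, with no array set apart from the rest. Whether 1422455_s_at reads Nsf alone was not tested. A dim probe set, 1457205_at, read 99.3, 72.5 and 52.8 against 37.1, 65.9 and 42.9. Its difference of -0.51 was the lowest of all 23, but it had the largest standard error (0.27), the groups overlapped and it did not pass (limma adjusted p = 0.517). The last, 1430409_at, read 6.25, 6.97 and 4.58 against 4.35, 3.03 and 3.80, below the filter, and was not tested. With the mean of the 3 probe sets past the filter Nsf was at -0.16 (limma adjusted p = 0.642).

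**Figure D3:**
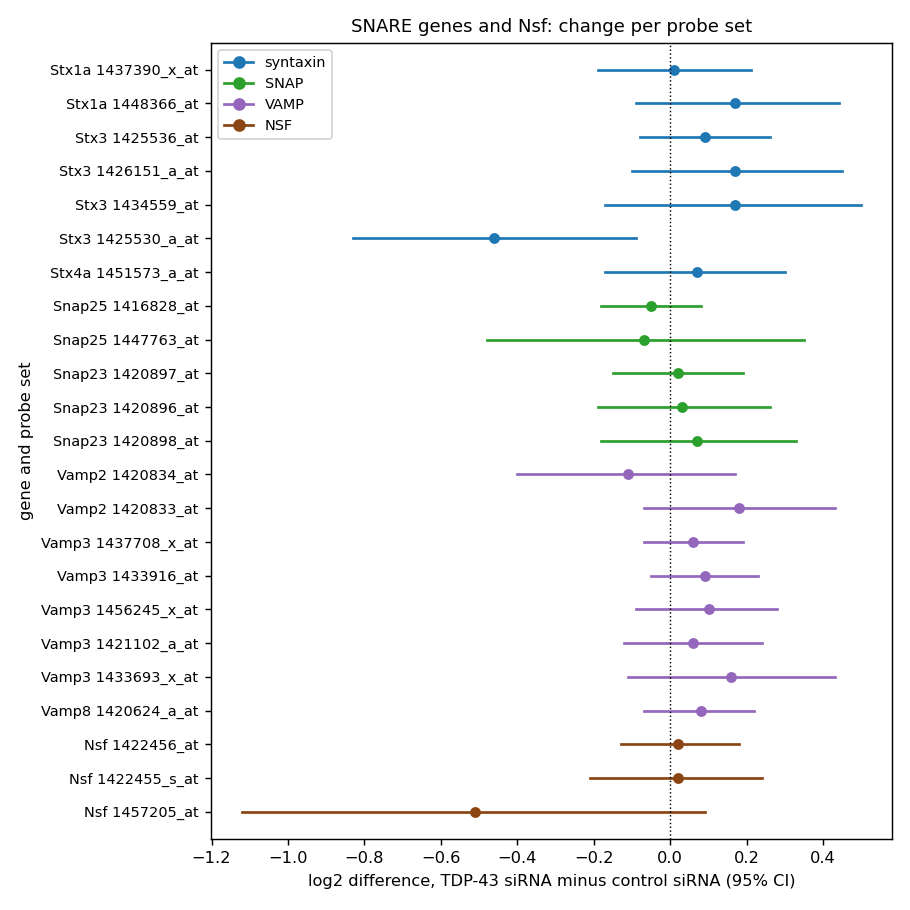
Log2 difference (TDP-43 siRNA minus control siRNA) of the 23 probe sets past the filter, each as a point with its unadjusted 95% confidence interval from limma (n = 3 per group), coloured by protein family. The points lie between -0.51 and 0.18, and Stx3 1425530_a_at is the one whose interval leaves out 0.

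The median standard error was 0.08 in the 15 probe sets with a mean signal over 500 and 0.10 in all 23. The variance model used an intensity trend, so a link between precision and brightness was partly built in. The order was not strict: for Vamp2 the standard error was 0.13 on the brighter 1420834_at and 0.11 on 1420833_at. The 15 probe sets with a mean signal over 500 all lay within 0.2 of 0 on the log2 scale, from -0.11 to 0.17. So did 21 of all 23, and 19467 of the 27022 probe sets tested on the array. No bound of the intervals of these 15 lay farther from 0 than 0.45. For all 23 the farthest bound was 1.12, that of Nsf 1457205_at. The intervals hold the differences that these few arrays do not exclude, so not passing the threshold does not show that the levels were equal.

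Across arrays, the members as a whole did not separate the groups. Averaged over the brightest probe set of each of the 9 genes, the log2 value relative to each gene's mean was -0.01, -0.02 and -0.01 in the control arrays and 0.01, -0.02 and 0.04 after TDP-43 siRNA. TDP-43 siRNA replicate 3 was the highest of the 6 arrays for 5 of the 9 genes (Stx3, Stx4a, Snap23, Vamp8 and Nsf), and over all 12619 genes it was the highest for 20.4%. TDP-43 siRNA replicate 1 was the lowest for Stx4a, Snap25 and Snap23, and over all genes for 14.2%. Control replicate 2 was likewise the lowest for Stx3, Vamp3 and Vamp8, and over all genes for 18.4%.

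The proteins that act on SNAREs were read from a list of 23 genes, of which 21 had a probe set for that gene alone and 19 passed the filter. It holds the Sec1/Munc18 proteins and other syntaxin-binding proteins, the complexins, the SNAP adaptors of NSF and several chaperones and binding partners. Of the 19 none passed by limma over all probe sets, and 3 had an unadjusted p below 0.05 (Txlna, Stxbp4 and Cplx2), beside 12.2% of all genes. There were 8 above 0 and 11 below, with a median of -0.03, where the median over the brightest probe sets of all 12619 genes was 0.02 and 0.626% of those passed. Txlna, the syntaxin-binding alpha-taxilin, read 1193, 1214 and 1044 in control arrays and 982, 948 and 1002 after TDP-43 siRNA, with no overlap (difference -0.23, SE 0.08, limma adjusted p = 0.324). Its other probe sets overlapped between groups, at -0.34 on 1434448_at and -0.07 on 1454861_at (limma adjusted p = 0.377 and 0.870). Cplx2, a complexin that clamps and promotes fusion, read 2376, 2292 and 2699 against 2848, 2569.8 and 3017, with overlap (difference 0.19, SE 0.08, limma adjusted p = 0.425). On its other probe sets the groups did not overlap, and they lay higher by 0.24 on 1455672_s_at and by 0.28 on 1436383_at without passing (limma adjusted p = 0.310 and 0.442). Whether 1455672_s_at reads Cplx2 alone was not tested. Stxbp4, also known as Synip and a partner of Stx4a, was at -0.30 on its brightest probe set (limma adjusted p = 0.421) and at -0.02 on 1455706_at (limma adjusted p = 0.987). Vps45, a Sec1/Munc18 protein of endosomes with 1 probe set, was at -0.21 (limma adjusted p = 0.451).

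Among 28 other SNAREs, mostly of the endoplasmic reticulum, Golgi and endosomes, 27 had such a probe set and 24 passed the filter. Of these 1 fell and 0 rose, where 0.499% of all genes fell and 0.127% rose on their brightest probe set. Bet1, a SNARE of transport between the endoplasmic reticulum and the Golgi, read 1646, 1583 and 1539 in control arrays and 1177, 1083 and 1063 after TDP-43 siRNA on 1416866_at. The groups lay far apart beside the spread within each. The difference was -0.52 (SE 0.07, 95% interval from -0.68 to -0.35, limma adjusted p = 0.0158). Its other probe set, 1416867_at, also showed no overlap, with a difference of -0.45 (SE 0.10, limma adjusted p = 0.106). Bet1 did not pass without control replicate 1 (0.113) or 2 (0.0780), without TDP-43 siRNA replicate 2 (0.0872) or 3 (0.0610), or with no intensity trend in the variance model (0.121), while its difference stayed between -0.56 and -0.48 over all alternatives.

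The other 23 genes of that list spread to both sides of 0, with 14 above, 9 below and a median of 0.05. Over all 24, Bet1 included, the groups did not overlap for 10 genes, 5 higher and 5 lower, where they did not for 18.3% of all genes. An unadjusted limma p below 0.05 was found for 7 of the 24, beside 12.2% of all genes. Vti1b, an endosomal SNARE picked out after its values were seen, read 5399.6, 5167 and 5301 against 4439.6, 4481 and 3892 (difference -0.31, SE 0.07, limma adjusted p = 0.0889). Whether Bet1 changed more than the 9 member genes was not tested.

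**Figure D4:**
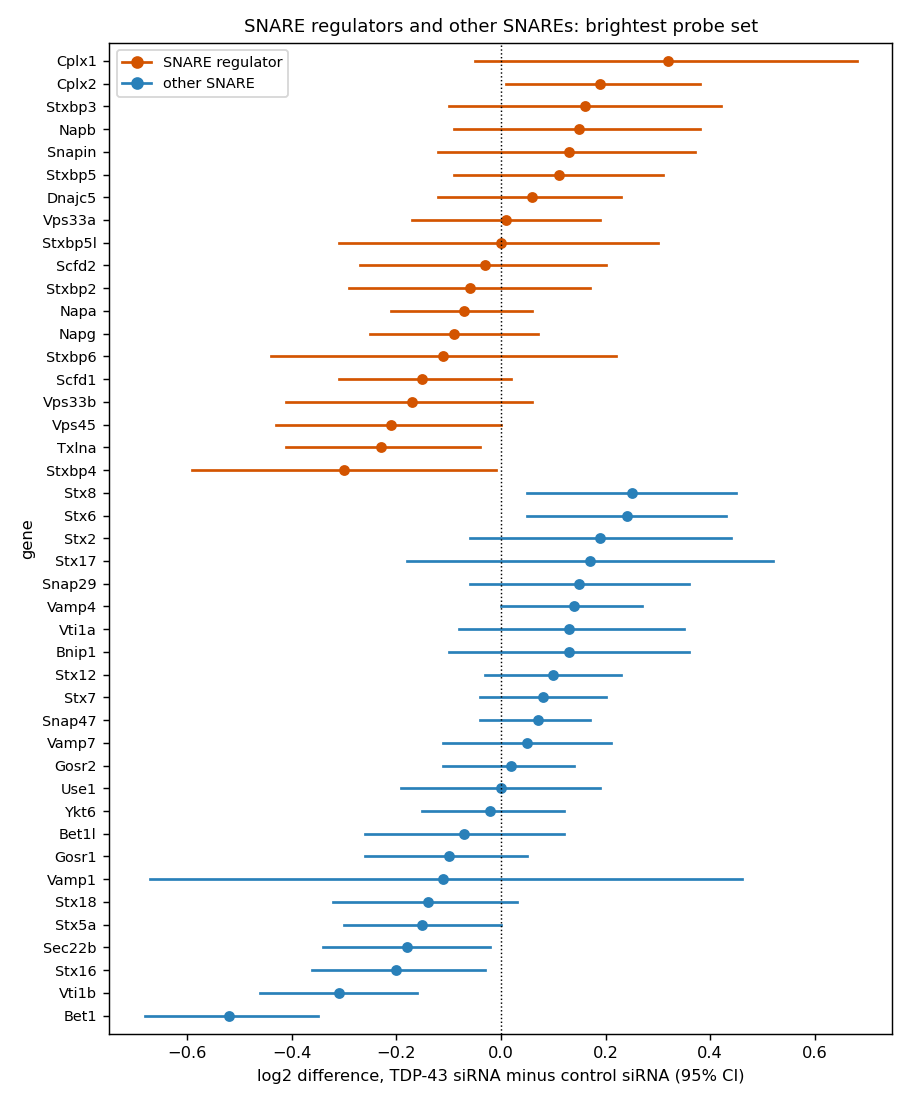
Log2 difference (TDP-43 siRNA minus control siRNA) on the brightest probe set of 19 SNARE regulators and 24 other SNAREs, with unadjusted 95% confidence intervals from limma (n = 3 per group), sorted within each list. Bet1, at -0.52, is the one gene past the threshold, and the lists run from -0.30 to 0.32 and from -0.52 to 0.25.

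Genes were also ranked by how closely their array-to-array differences matched those of Stx1a, Snap25 and Vamp2. The brightest probe set of each was used, which for Stx1a was 1437390_x_at. Over the log2 values of the 6 arrays the genes most like Stx1a were Chrnb3, Bst2 and Rnf128, with a Pearson r of 0.99 each. Those most like Snap25 were Dtwd1, Rpp21 and Rabl2 (0.99, 0.98 and 0.97), and those most like Vamp2 were Poc1b, Cenpt and Nudt16l1 (0.99, 0.98 and 0.98). These values describe 6 arrays and carry no test: out of 11943 genes compared, 117, 68 and 72 had an r over 0.9 with Stx1a, Snap25 and Vamp2. How many would reach such an r by chance over 6 arrays was not tested, so no shared pattern is claimed.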

How the data were processed

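The table deposited by the authors gives linear signal intensity of 45101 probe sets on 6 arrays, computed with MAS5 (version not stated) per the submitters' processing notes. On every array the mean was 500.003 after trimming 2% at each end. No detection calls were used. Genes came from the platform annotation (34945 probe sets with 1 gene). Of these 34741 were matched by Entrez number to a RefSeq table of GRCm38.p6 and took its symbol. The value 12 (the 20th percentile of the table) was added before log2. Control probe sets and the 40% with the lowest mean were left out, leaving 27022. The main test was limma (version 3.58.1, R 4.3.3; eBayes with an intensity trend, two-sided, Benjamini-Hochberg over all probe sets, threshold 0.05). Each other probe set of a gene was compared with its brightest by fitting their difference. Steps were tested on simulated data. Figures used matplotlib 3.10.9.

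Members and lists were chosen with earlier results of these data known. Named were all members, Tardbp, list genes past the threshold or otherwise the 4 with the smallest p, and the 3 genes most like Stx1a, Snap25 and Vamp2. Alternatives were other pseudocounts (1 and 42), filters (none, 60%), normalizations, variance models, array weights, 1 value per gene, the replicate number as a block and each array left out.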

Additional observations from a re-analysis of the deposited data

How the results depend on the processing

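The count of 0 for the member probe sets and for the SNARE regulators held under every alternative run, as did that of 0 for probe set pairs of a member under all but the fits with 1 value per gene, which have no pairs, and over 384 recomputed values the lowest adjusted p of a member probe set was 0.218. The 60% filter left out 2 of the member probe sets (Stx3 1425530_a_at and Nsf 1457205_at), and fits with 1 value per gene gave 9 values. The count over all probe sets was 158 and became 69 with no filter, 0 with no intensity trend, 94 with 1 probe set per gene and 61 when the probe sets of each gene were averaged, and ran from 56 to 325 with an array left out (325 without control replicate 3). Without the trend Tardbp, at -0.85, did not pass (limma adjusted p = 0.0964), and the count of other SNAREs was 0. With an array left out that count ran from 0 to 1. Control and TDP-43 siRNA arrays of the same replicate number had correlations of their deviations from group means of -0.11, -0.13 and 0.25. Control replicate 1 with TDP-43 siRNA replicate 2 was at 0.22, and control replicate 2 with TDP-43 siRNA replicate 1 at 0.29. The remaining pairs of arrays lay from -0.19 to -0.07. The labels name no pairs, and a block other than by replicate number was not tested. With the replicate block the counts were 0 for members, 156 over all, 0 for regulators and 1 for other SNAREs.

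Of 23 member probe sets 13 kept their sign throughout. With the mean of probe sets the value was 0.03 for Vamp2, -0.16 for Nsf and -0.01 for Stx3, and with array weights Nsf 1422456_at and its gap to 1422455_s_at turned sign at 0.00. With an array left out, values that changed sign ran from -0.04 to 0.05 for Stx1a 1437390_x_at, -0.01 to 0.15 for Stx4a, -0.21 to 0.09 for Snap25 1447763_at, -0.01 to 0.06 and -0.03 to 0.10 for Snap23 1420897_at and 1420896_at, -0.01 to 0.10 for Vamp3 1421102_a_at, and -0.03 to 0.06 and -0.08 to 0.10 for Nsf 1422456_at and 1422455_s_at. The differences in change from the brightest probe set that did so ran from 0.00 to 0.17 for Stx3 1426151_a_at, -0.19 to 0.13 for Snap25 1447763_at, -0.03 to 0.05 for Snap23 1420896_at, -0.11 to 0.06, -0.05 to 0.07 and -0.02 to 0.12 for Vamp3 1421102_a_at, 1433916_at and 1456245_x_at, and -0.09 to 0.06 for Nsf 1422455_s_at. The causes were not tested. No background signal was used here, so how far it limits the dim probe sets was not tested.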
